A study of Mus musculus with 7 samples.

Results

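The major histocompatibility complex (MHC) genes of antigen presentation were examined in primary neurospheres from the adult mouse hippocampus. The 10 members were taken by gene symbol from the 24346 genes of the FPKM table. They were the class I heavy chains H2-K1 and H2-D1, their light chain B2m, the peptide transporter subunits Tap1 and Tap2, the peptide loading factor Tapbp, the class II chains H2-Aa and H2-Ab1, the class II invariant chain Cd74 and the class II transactivator Ciita. All 10 were found, and 8 of them passed the filter for testing, a mean of at least 0.5 FPKM (fragments scaled to the length of the transcript and to the mapped fragments of the library) over the libraries. H2-Aa and Ciita did not.

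Each of the 7 libraries came from the neurospheres of a single C57/BL6 mouse of the age of 2 months by its label. The 4 control mice were WT_215, WT_116, WT_213 and WT_220, and the 3 Med23 CKO mice were KO_117, KO_214 and KO_218. Med23 CKO mice were Nestin-CreER:Med23 flox/flox, in which a tamoxifen-activated Cre driven by Nestin deletes part of the Mediator subunit gene Med23. Controls, labelled wild type, were littermates that the methods give as Med23 flox/+ or Med23 flox/flox. Tamoxifen was given to both groups by gavage on 5 days, at a daily dose of 200 mg/kg, which the labels place at 2 months and the methods, for cultures, at an earlier age. By the labels, mice had 3 to 4 weeks of recovery before most experiments, and which interval applies to these cultures is not stated there. Recombination was therefore directed at Nestin-expressing cells, which by the study's account include endothelial cells, and which cells of the cultures had recombined was not tested.

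MHC class I molecules display peptides of the cell's own proteins to cytotoxic T cells. Peptides made by the proteasome are pumped into the endoplasmic reticulum by Tap1 and Tap2, Tapbp holds the empty heavy chain beside the transporter, and the heavy chain leaves for the surface bound to B2m. Class II molecules display peptides of ingested proteins to helper T cells. Cd74 fills the groove of the H2-Aa and H2-Ab1 pair until the endosome, and Ciita switches the class II genes on. In the brain, class II is a feature of microglia and other macrophages once activated, neurons hold little class I, and interferon gamma is the best known inducer of both classes.

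The 7 members Tapbp, H2-K1, Tap1, Tap2, H2-Ab1, H2-Aa and H2-D1 lie, in that order, in the MHC on chromosome 17 of GRCm38, within 1348020 bases (chr17:33919478-35267497). B2m lies at chr2:122147687-122153082, and Ciita on chromosome 16 from 10480014 to 10531064. Cd74 is on another autosome. RefSeq promoters, the 250 bases before the start on GRCm38.p6, were held for 6 members and not for Tap2, H2-Ab1, Cd74 or Ciita. The stretches of B2m and H2-Aa are shown because both hold a Y box (GATTGG, in capitals), an element of class I and class II promoters, and that of B2m also the interferon-stimulated response element, GAAA followed by any 2 bases and GAAA, in capitals further upstream. They lie at chr2:122147538-122147648 on the plus strand and at chr17:34287857-34287922 on the minus strand, and are written 5′ to 3′.
B2m: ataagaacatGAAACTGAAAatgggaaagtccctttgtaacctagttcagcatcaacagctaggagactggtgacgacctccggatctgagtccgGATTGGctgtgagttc
H2-Aa: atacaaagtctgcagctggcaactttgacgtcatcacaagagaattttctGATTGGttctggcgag
On either strand, a Y box was found in 4 of the 6 promoters (B2m, Tap1, H2-Aa and H2-D1), and in 14.6% of the 32851 promoters of the RefSeq table. With the other start listed for H2-K1, 14 bases away, its promoter also held a Y box. An exact match to the letters of the response element was found in B2m alone among the 6, and in 2.98% of all promoters. Exact matches to a gamma-activated site (TTCNNNGAA, 7.02% of all promoters) and an X box (AGNNACNGA, 14.7% of all promoters) were found in 0 of the 6. Only these exact letters were searched for. Elements that differ from them would be missed, so none is shown to be absent. No match overlapped another.

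H2-K1 and H2-D1 are close copies, which bears on how their reads were shared out. The promoters of both genes held a stretch of 88 bases with 1 mismatch. From it, 30 bases of each are shown with the mismatch in capitals (A18T, counted from 1 at the 5′ end, H2-K1 first), from chr17:34000429-34000458 on the minus strand and chr17:35262923-35262952 on the plus strand.
H2-K1: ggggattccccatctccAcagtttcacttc
H2-D1: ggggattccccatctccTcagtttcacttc
Their longest open reading frames in GENCODE M21, of 1110 and 1089 bases, were identical at 988 of 1119 aligned positions (88.3%). Of the stretches of 50 bases in the H2-K1 frame, 12.8% also occurred in transcripts of another gene, most often H2-D1. For H2-D1 the share was 24.1%, most often with H2-Q1. Reads from such stretches could be assigned to either copy, so the FPKM of both heavy chains is uncertain to that extent. For B2m, Tapbp, H2-Aa and H2-Ab1 the share was 0%, for Tap1 1.18% and for Tap2 1.21%. Exons of Zbtb22 (mean 15.9 FPKM) on the same strand covered 4.11% of the exon bases of Tapbp, where strand cannot tell both genes apart. Those of Mir5107, at a mean of 0 FPKM and on the same strand, covered 0.715% of the exon bases of Cd74. Exons on the opposite strand covered 24.9% of the exon bases of Tapbp (the antisense gene Gm19412), 14.1% and 4.36% of those of Tap2 (Gm15821 and Gm20496), 3.87% of those of Tap1 (Psmb9) and 3.45% of those of Ciita (Dexi, at a mean of 11.8 FPKM), and the sources used here do not state that strand was used in counting.

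Med23 itself had 11.4, 10.3, 12.9 and 10.1 FPKM in the 4 controls and 9.97, 9.27 and 8.12 FPKM in KO_117, KO_214 and KO_218. Every Med23 CKO library was thus lower than the lowest control (log2 fold change -0.26, two-sided exact permutation p = 0.0571), and FPKM also counts the exons that are not deleted. Markers of neural stem cells were present in every library, with a summed level of 12 genes between 1915 and 3927 FPKM in controls and between 2093 and 3957 FPKM in Med23 CKO. Markers of other cells were present too. The 20 markers of microglia and macrophages were above 0 in every library, and their sum differed from 76.2 FPKM in WT_220 to 1879 FPKM in KO_214. The sum of 12 endothelial markers was highest in KO_214 as well (163 FPKM), as was that of 10 mural and fibroblast markers (542 FPKM). The 9 oligodendrocyte markers summed to between 2676 and 4850 FPKM in controls and between 2241 and 2922 FPKM in Med23 CKO, and the 7 neuronal markers to between 110 and 148 FPKM and between 69.0 and 188 FPKM. In such bulk samples, fewer cells of a type and less RNA per cell cannot be told apart.

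The class I members were expressed in every library and the class II members were close to the lower end of the scale. Mean FPKM, which is per length and so can be set side by side between genes, fell from B2m (333 FPKM over the 7 libraries) through H2-D1 (73.1), H2-K1 (32.0), Tapbp (16.1), Tap1 (10.7) and Tap2 (7.05) to H2-Ab1 (1.88), Cd74 (0.631), H2-Aa (0.248) and Ciita (0.0841). B2m ranked at the 99.2 percentile of all genes by mean FPKM and Ciita at the 32.1 percentile. Neighbours in this order kept it in 7 of 7 libraries for B2m over H2-D1, Tap1 over Tap2 and H2-Ab1 over Cd74. H2-K1 was above Tapbp in only 4 of 7 libraries, so these neighbours did not differ beyond the spread between libraries. The other neighbouring pairs kept their order in 6 of 7 libraries.

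B2m, the light chain of every class I molecule, had 174, 327, 291 and 66.7 FPKM in controls WT_215, WT_116, WT_213 and WT_220. It had 56.0 FPKM in KO_117, 1089.8 FPKM in KO_214 and 327 FPKM in KO_218. The lowest and the highest of the 7 values were both in Med23 CKO, and the groups overlapped. Its log2 fold change, the difference in mean log2(FPKM + 1), was 0.57 (standard error 0.99), with a two-sided p of 0.657 by the exact permutation test used for all members. With 4 against 3 mice this test cannot give a p below 0.0286, and the p-values of the members measure the spread between single mice and are not adjusted for their number unless said.

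H2-D1, a classical heavy chain, had 22.3, 75.2, 30.1 and 34.1 FPKM in the controls, in the same order. In the Med23 CKO mice it had 13.8, 277 and 59.2 FPKM. Again KO_117 was lowest and KO_214 highest, and the controls lay between them. Med23 CKO minus control was 0.75 on the log2 scale, with a standard error of 0.92 (exact permutation p = 0.571).

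H2-K1, the other classical heavy chain, had 3.01, 34.0, 2.27 and 47.2 FPKM in the controls against 1.67, 109.7 and 26.3 FPKM with Med23 CKO. Its values fell far apart within both genotypes: WT_215, WT_213 and KO_117 were at or below 3.01 FPKM, and the other libraries were at or above 26.3 FPKM. The highest value was 65.9-fold the lowest, the widest range of the 9 members without a value of 0. Med23 CKO minus control was 0.72 on the log2 scale, with a standard error of 1.46 (exact permutation p = 0.743).

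**Figure D1:**
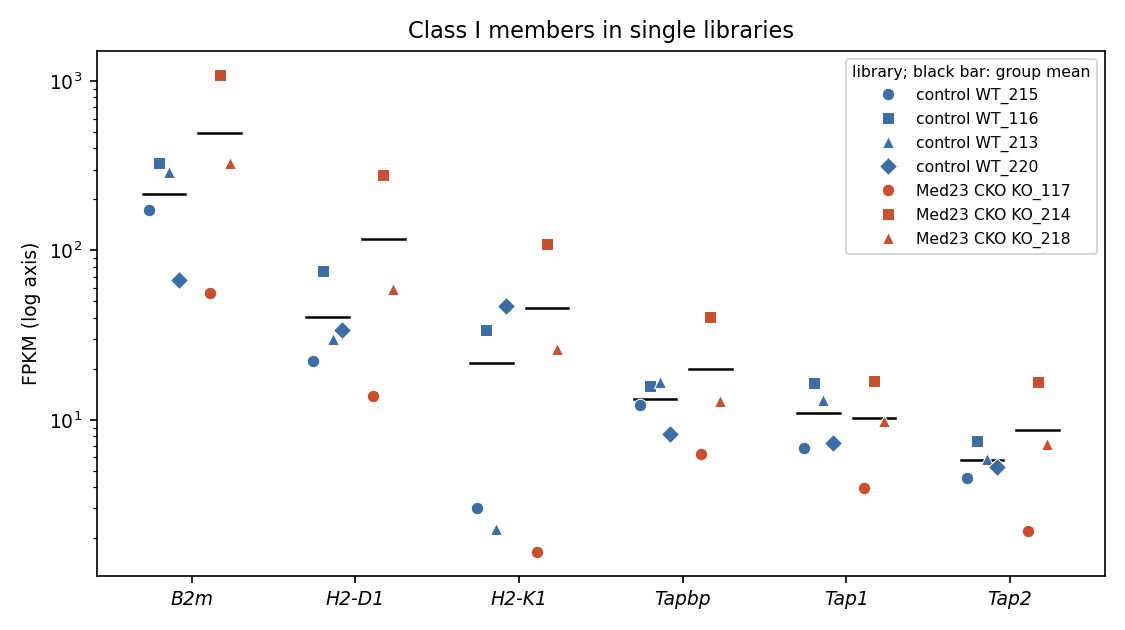
FPKM of the 6 class I members (log axis) in each of the 4 control (blue) and 3 Med23 CKO (orange) libraries, with a black bar at each group mean. For every gene KO_214 is the highest and KO_117 the lowest point, and H2-K1 falls into low and high libraries in both groups.

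The ratio of both heavy chains within a library showed the same gap. H2-K1 over H2-D1 was 0.135, 0.453, 0.0754 and 1.39 in the controls against 0.120, 0.396 and 0.445 with Med23 CKO, a range of 18.4-fold. Only in WT_220 was H2-K1 above H2-D1. The ratio of B2m to the sum of both heavy chains was 6.86, 3.00, 8.97 and 0.821 in the controls against 3.61, 2.82 and 3.82 with Med23 CKO, so WT_220 was also the only library with less B2m than heavy chain. Neither ratio differed between genotypes beyond the spread (exact permutation p = 0.943 and 0.971, on the log2 scale). Among all genes tested, those most like H2-K1 over the 7 libraries were Cyb5rl (Pearson r of log2(FPKM + 1) 0.970), H2-L (0.950) and Adamts13 (0.920). H2-L, named as another class I heavy chain gene, was listed with 0.753, 2.71, 3.36 and 1.10 FPKM in WT_116, WT_220, KO_214 and KO_218 and at 0 in the libraries low in H2-K1. The RefSeq positions used here give no chromosome for H2-L. Whether its reads came from other class I genes was not tested.

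**Figure D2:**
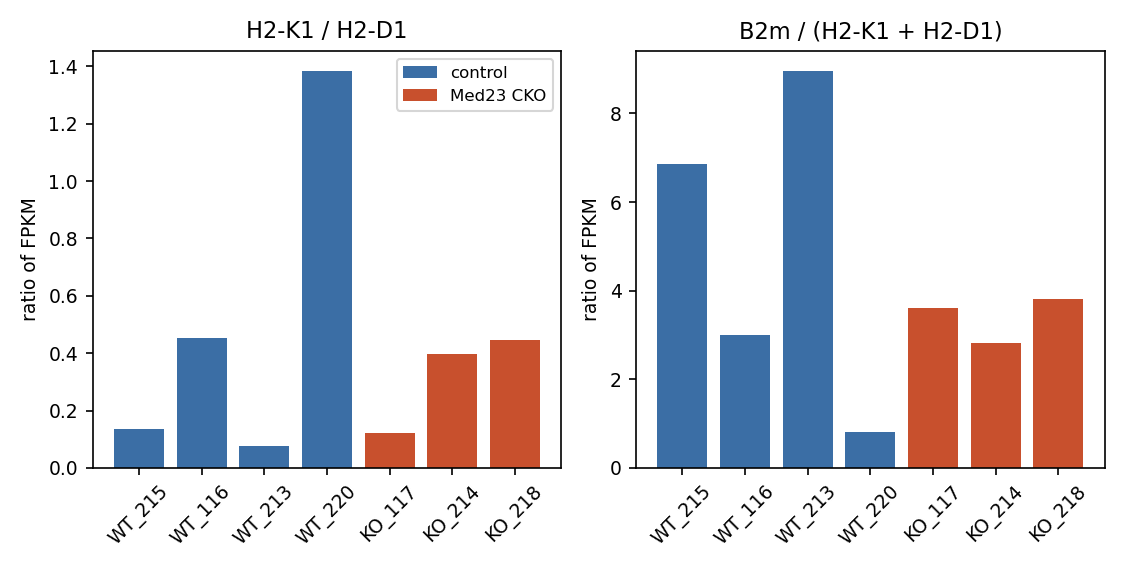
Ratios of FPKM within each library, H2-K1 over H2-D1 on the left and B2m over the sum of both heavy chains on the right, for control (blue) and Med23 CKO (orange) mice. WT_220 has the highest ratio on the left (1.39) and the lowest on the right (0.821).

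Tap1, a subunit of the peptide transporter, had 6.79, 16.6, 13.1 and 7.29 FPKM in the controls against 3.94, 16.99 and 9.90 FPKM with Med23 CKO. Its range was the narrowest of the class I members, 4.31-fold, and its log2 fold change was the only negative value among them (-0.18, standard error 0.49, exact permutation p = 0.8). Tap2, the partner subunit, had 4.57, 7.52, 5.90 and 5.29 FPKM in the controls against 2.20, 16.7 and 7.19 FPKM with Med23 CKO. The control values of Tap2 lay close together and those of Med23 CKO on both sides of them (log2 fold change 0.20, standard error 0.53, exact permutation p = 0.714). Tap1 was above Tap2 in every library, by 1.02-fold in KO_214 to 2.22-fold in WT_213, and the ratio did not differ between genotypes beyond the spread (exact permutation p = 0.257).

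Tapbp, or tapasin, had 12.2, 15.8, 16.8 and 8.21 FPKM in the controls against 6.31, 40.5 and 12.9 FPKM with Med23 CKO. KO_214 was more than any control and KO_117 less than any control, as for the other class I members (log2 fold change 0.23, standard error 0.56, exact permutation p = 0.8). The genes most like Tapbp over the 7 libraries were Tgfb1 (r = 0.996), Itgb3 (0.995) and Plau (0.994). Among those most like Tap1 were Sbds (r = 0.996) and Ubl5 (0.995). These correlations rest on 7 libraries of the same tissue and are given as a description.

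H2-Ab1, the class II beta chain, was the only class II member above 1 FPKM in most libraries. It had 0.890, 1.85, 1.59 and 5.49 FPKM in the controls against 0.183, 2.14 and 1.05 FPKM with Med23 CKO. The control WT_220 was highest and the groups overlapped. Med23 CKO minus control was -0.65 on the log2 scale, with a standard error of 0.49 (exact permutation p = 0.371), and -0.29 without WT_220.

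Cd74, which in class II positive cells is among the most abundant transcripts, had 0.779, 0.582, 0.905 and 0.318 FPKM in the controls against 0.115, 0.896 and 0.821 FPKM with Med23 CKO. No library reached 1 FPKM (log2 fold change -0.06, standard error 0.26, exact permutation p = 0.857). The genes most like Cd74 were Spag6 (r = 0.986), Wfdc2 (0.972) and Dnah7b (0.967). H2-Aa, the alpha chain that pairs with H2-Ab1, had between 0.103 and 0.582 FPKM in the controls, was listed at 0 in KO_117, and had 0.124 and 0.476 FPKM in KO_214 and KO_218 (difference in mean log2(FPKM + 1) -0.10, exact permutation p = 0.6). Ciita had between 0.0250 and 0.113 FPKM in the controls against 0.103, 0.0382 and 0.171 FPKM with Med23 CKO (difference 0.04, exact permutation p = 0.371). Both were left out of the test over all genes, and no difference was detected by the permutation test.

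**Figure D3:**
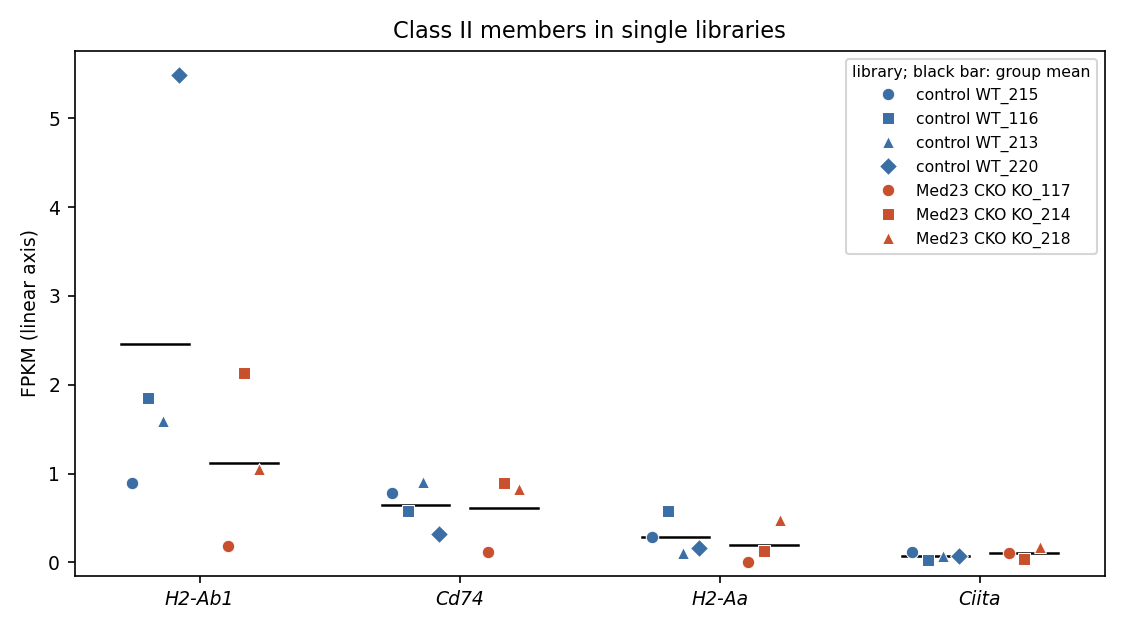
FPKM of the 4 class II members (linear axis) in each control (blue) and Med23 CKO (orange) library, with a black bar at each group mean. H2-Ab1 reaches 5.49 FPKM in WT_220, and all values of Cd74, H2-Aa and Ciita lie below 1 FPKM.

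In the comparison of the genotypes, 0 of the 8 members tested passed limma's test, at an adjusted p under 0.05 or at an unadjusted p under 0.05. Each had an adjusted p of 0.9999. Over all 14151 genes tested, 0.502% passed the unadjusted threshold with a higher and 0.996% with a lower mean in Med23 CKO, and 0% the adjusted one. For all 10 members the groups overlapped, whereas 0.784% of the genes tested had every Med23 CKO library above the highest control and 1.53% every one below the lowest control. Of the 6 class I members 5 had a higher mean in Med23 CKO, with a median log2 fold change of 0.40, and of the 4 class II members 1 had a higher mean, with a median of -0.08. The median over all genes tested was -0.03, and 6196 of them had a higher and 7955 a lower mean. The 95% intervals of the log2 fold changes ran from -2.69 to 4.13 for H2-K1, from -1.38 to 2.89 for H2-D1 and from -1.74 to 2.89 for B2m, so that severalfold changes in either direction lie within them. That of Cd74 ran from -0.67 to 0.56, but the 1 added to the FPKM compresses differences at its level, below 1 FPKM. With 0.1 added instead, its log2 fold change was -0.28 with a standard error of 0.69, so its interval is not evidence of a smaller change.

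The sign of most differences rested on single libraries. Without KO_214, the log2 fold change was -0.52 for H2-K1, -0.32 for H2-D1, -0.43 for B2m, -0.40 for Tap2 and -0.46 for Tapbp. Without KO_117, the log2 fold changes of these members were between 0.80 and 2.17. H2-D1 (1.79, unadjusted p = 0.0321 from limma) and Tap2 (0.84, unadjusted p = 0.0490 from limma) were then under 0.05, with an adjusted p of 0.597 for both. Over all genes, 362 were higher and 410 lower at that unadjusted threshold without KO_117, against 71 and 141 with all libraries. Tap1 turned to 0.32 without KO_117 and to 0.03 without the control WT_116. Cd74 turned to 0.19 without KO_117 and to 0.02 without the control WT_213. H2-Ab1 was lower in Med23 CKO with any library left out, between -0.99 and -0.28.

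**Figure D4:**
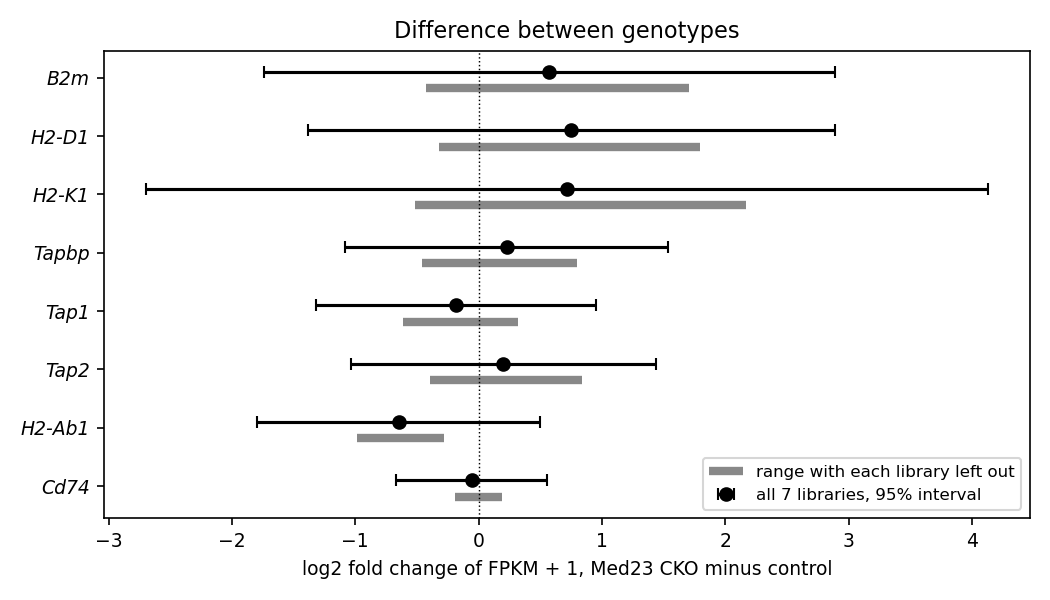
Log2 fold change of FPKM + 1, Med23 CKO minus control, for the 8 members tested: black points with the 95% interval of limma over 7 libraries, and grey bars for the range with each library left out in turn. Every interval spans 0, and H2-Ab1 is the only member whose grey bar does not.

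Within the genotypes the class I members varied more than most genes. Their standard deviations between libraries of a group were between 0.74 and 2.33 on the log2 scale, against a median of 0.38 over all genes tested, and ranked between the 83.4 and the 99.9 percentile. The class II member H2-Ab1 was close to the low end of this range (0.74, 83.1 percentile). Cd74 was lower (0.32, 41.4 percentile). The 1 added to the FPKM shrinks this measure for low genes. Over the 7 libraries the highest FPKM was 29.9-fold the lowest for H2-Ab1 and 7.88-fold for Cd74. For the class I members it was between 4.31-fold (Tap1) and 65.9-fold (H2-K1). KO_214 held the highest value for 6 of 6 class I members and for 0 of 4 class II members. For Tap1 it was above WT_116 by little (16.99 against 16.6 FPKM). For Cd74 it was below WT_213 by little (0.896 against 0.905 FPKM). Of the other pathway genes tested (lists below), KO_214 was highest for 20 of 26 in class I and 7 of 11 in class II. Over all genes tested, KO_214 held the highest value for 25.4%. KO_117 held the lowest value for 6 of 6 class I and 3 of 4 class II members, and for 20.6% of all genes tested.

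The level of microglia and macrophage markers also differed widely between libraries. The 20 markers summed to 156, 304, 440 and 76.2 FPKM in the controls WT_215, WT_116, WT_213 and WT_220 and to 78.1, 1879 and 321 FPKM in KO_117, KO_214 and KO_218. In KO_214 the highest were Tyrobp (492 FPKM) and Cd68 (259 FPKM), and 18 of the 19 markers tested had their highest value there. P2ry12 did not (1.24 FPKM, against 1.60 FPKM in WT_116). Nor did Cx3cr1, which was below the filter for testing (0.157 FPKM, against 0.782 FPKM in WT_213). The library highest in the sum of the 20 markers was thus the highest in class I. The libraries lowest in them, WT_220 and KO_117, were the lowest in B2m (66.7 and 56.0 FPKM), while WT_213, next to the highest in the markers, had less B2m (291 FPKM) than WT_116 and KO_218 (327 FPKM each). Both heavy chains departed from the order of the markers, since WT_220, lowest in the markers, was above WT_213 in H2-K1 (47.2 against 2.27 FPKM) and in H2-D1 (34.1 against 30.1 FPKM). WT_220 was also above WT_215 in Tap1 (7.29 against 6.79 FPKM) and in Tap2 (5.29 against 4.57 FPKM). H2-Ab1 had its highest value in WT_220 as well. The mean was higher with Med23 CKO for all 19 markers that were tested (median log2 fold change 0.87, and -0.27 without KO_214), and 0 had an unadjusted p under 0.05. Of 8 markers of dendritic and B cells, 2 could be tested, Itgax (between 0.396 and 8.15 FPKM) and Zbtb46 (between 1.24 and 2.41 FPKM), and the B cell gene Ms4a1 stayed at or below 0.273 FPKM. The summed endothelial markers and the summed mural and fibroblast markers were also highest in KO_214, and they were lowest in KO_117 (16.3 and 10.7 FPKM). All 12 and all 10 of these markers had a higher mean with Med23 CKO. The part of any of these cells in the levels of the members was not tested.

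**Figure D5:**
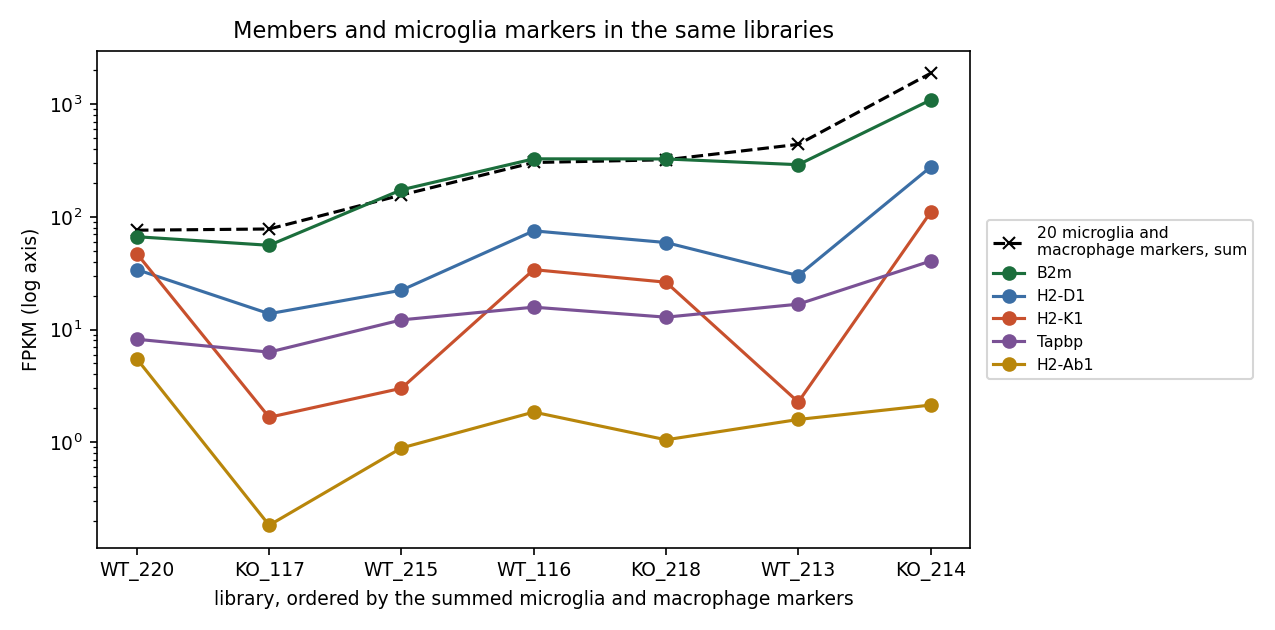
FPKM (log axis) of 5 members and the sum of 20 microglia and macrophage markers (dashed) in the 7 libraries, ordered by that sum. B2m, H2-D1 and Tapbp are highest in KO_214 with the markers, whereas H2-K1 drops to 2.27 FPKM in WT_213 and H2-Ab1 peaks in WT_220.

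The wider pathways gave 0 genes under either threshold. Of all 14151 genes tested, 0.502% passed the unadjusted one with a higher and 0.996% with a lower mean. A higher mean was found for 6196 of all genes tested and a lower mean for 7955. In a list of 38 class I pathway genes that includes the members, 26 other genes were tested, 23 with a higher and 3 with a lower mean in Med23 CKO. Their median log2 fold change was 0.23, and -0.02 without KO_214. Over all genes tested, 0.784% had every Med23 CKO library above the highest control and 1.53% every one below the lowest. Of the 26, the groups did not overlap for 1, H2-T23, a nonclassical heavy chain named after its values were seen. It had 3.07, 5.84, 5.26 and 6.30 FPKM in the controls against 6.69, 37.7 and 6.83 FPKM with Med23 CKO (log2 fold change 1.15, standard error 0.58, adjusted p = 0.9999 from limma). The most abundant were the chaperones of the endoplasmic reticulum, Calr (mean 282 FPKM, log2 fold change 0.10), Pdia3 (218.3, 0.12) and Canx (211, 0.17), which fold heavy chains among many other proteins. Of these, Calr varied between 201 and 365 FPKM, far less than the class I members. In the list of 22 class II pathway genes, 11 others were tested, 8 with a higher and 3 with a lower mean (median log2 fold change 0.43, and -0.18 without KO_214). The most abundant were the lysosomal proteases that trim Cd74 and antigens, Ctsl (mean 266 FPKM, log2 fold change 0.78), Lgmn (94.2, 0.55) and Ctss (87.3, 0.92), all with a standard error at or above 0.58. All 3 were highest in KO_214, where Ctss had 375 FPKM against at most 68.3 FPKM in the other libraries. H2-Eb2, H2-Ea-ps and H2-Ob were listed at 0 in all libraries. In the interferon gamma list, 15 of 18 genes were tested, 11 with a higher and 4 with a lower mean (median log2 fold change 0.24, and -0.11 without KO_214). Its most abundant genes were the signaling kinase Jak1 (mean 28.0 FPKM, log2 fold change 0.25) and the receptor chains Ifngr2 (26.9, 0.24) and Ifngr1 (17.6, 0.44). Ifng itself was at 0.0890 FPKM in KO_218 and listed at 0 in the other libraries.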

How the data were processed

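RNA of primary hippocampal neurospheres was sequenced by the authors, 1 library per mouse (4 control, 3 Med23 CKO). The paper gives n = 3 in each group for its sequencing, which differs from the 4 controls used here. Per the methods and the submitters' processing notes, the reads were checked with FastQC, trimmed, aligned to mm10 with TopHat and summarised with Cuffdiff. The gene annotation is not given in the sources used here. The deposited values used are FPKM per gene and library. The authors' own comparison columns (log2 fold change, test score, p-value and q-value) were not used. The paper reports upregulated and downregulated genes from its own comparison with Cuffdiff.

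Low FPKM values showed no steps of whole reads, so the depth is unknown and no counting error can be given. From the FPKM, log2(FPKM + 1) was computed, and genes with a mean of at least 0.5 FPKM (14151 of 24346) were tested with limma 3.58.1 in R 4.3.3, Med23 CKO against control, with Benjamini-Hochberg adjustment over all genes tested. The limma script was tested on simulated data. Single values and ratios were compared with exact permutation tests over the 35 arrangements of 7 mice. A fold change on this scale understates that of low genes. All 10 members are named. The members and lists were chosen with earlier results of these data known. Like genes are the 3 with the highest Pearson r. Some genes are not reported here. Positions and promoters are from RefSeq GRCm38.p6, and open reading frames from GENCODE M21, compared as nucleotides in place of the planned protein comparison. Alternatives were another pseudocount, other filters and scalings, limma without trend, with robust empirical Bayes or with array weights, a covariate for the leading digit of mouse numbers, and leaving out each library.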

Additional observations from a re-analysis of the deposited data

How the results depend on the processing

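No paired analysis was made. Controls were littermates by the methods, and the labels do not give the litter of each mouse. A covariate for the leading digit of mouse numbers, whose meaning the labels do not give, left 0 members, 61 genes with a higher and 101 with a lower mean past the unadjusted threshold of 0.05. Leaving out 1 library at a time, the log2 fold change ranged from -0.52 to 2.17 for H2-K1, from -0.32 to 1.79 for H2-D1, from -0.43 to 1.70 for B2m, from -0.61 to 0.32 for Tap1, from -0.40 to 0.84 for Tap2, from -0.46 to 0.80 for Tapbp, from -0.99 to -0.28 for H2-Ab1 and from -0.19 to 0.19 for Cd74. The median of the members tested ranged from -0.44 to 0.82. Members higher at an unadjusted p under 0.05 numbered 0 to 2, genes higher 44 to 362 (362 without KO_117), genes lower 71 to 410, and genes higher at an adjusted p under 0.05 0 to 1. Against the 71 and 141 genes that passed the unadjusted threshold with a higher and a lower mean, no filter gave 140 higher, and array weights, which stopped before convergence, gave 193 higher and 887 lower. Array weights also turned Cd74 to 0.0162. The cause was not tested. Of 79 member values under settings that kept all libraries, 78 kept their sign. Cd74 was not tested with a filter of 1 FPKM. The lowest adjusted p of a member in any setting was 0.594.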

Other observations

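The genes in this section were named after their values were seen. The immunoproteasome subunit Psmb8 had 2.34, 3.10, 5.60 and 2.95 FPKM in controls WT_215, WT_116, WT_213 and WT_220, against 1.84, 22.9 and 4.49 FPKM in KO_117, KO_214 and KO_218. Nlrc5, the transactivator of class I genes, had 1.26, 3.84, 2.03 and 0.403 FPKM in the controls against 0.172, 4.04 and 1.70 FPKM with Med23 CKO. Both were highest in KO_214, and the groups overlapped. The class II peptide exchange chain H2-DMa had 7.69, 9.67, 11.1 and 5.64 FPKM in the controls against 5.38, 9.74 and 6.76 FPKM with Med23 CKO, above Cd74 in every library.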
